A study of Mus musculus with 6 samples.

Results

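The plasminogen activators, their receptor and the serpins and tissue inhibitors of metalloproteinases (TIMPs) that hold extracellular proteolysis in check were followed in 4T1, a mouse mammary carcinoma line. The 9 genes were taken by symbol from a table of 56448 genes and comprised the activators Plau and Plat, the receptor Plaur, the serpins Serpinb2 and Serpine2, and Timp1, Timp2, Timp3 and Timp4. Messenger RNA had been sequenced from 3 libraries labelled in9 and 3 labelled LV2. The submitters describe stable lentiviral knockdown of the microRNA miR-9 in 4T1 beside a control, but the labels neither spell out in9 and LV2 nor say which is the control, and levels of mature miR-9 were not analysed here, so each difference is given as in9 minus LV2. Both groups are the same line, and nothing states that the libraries came from separate cultures or separate clones, so a p-value reflects library-to-library spread alone, and that spread may be technical.

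Urokinase (Plau) and tissue plasminogen activator (Plat) are serine proteases that cut plasminogen into plasmin, a broad protease that degrades fibrin and matrix and activates latent metalloproteinases. The urokinase receptor (Plaur) is tethered to the outer membrane by a lipid anchor and gathers urokinase at the cell surface, where in breast tumours it has long been associated with invasion. Serpins are suicide inhibitors that trap their protease in a covalent complex, while TIMPs block the active site of matrix metalloproteinases reversibly.

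Because miR-9 is the microRNA that the study set out to lower, its mature sequence is shown first. Below it stands every 7-base or 8-base match to its seed in the longest annotated 3′ UTR of these genes. Shorter matches and the rest of each transcript were not counted. In the miRNA line the capitals are the seed, bases 2 to 8. In the gene lines they are the matched motif in the 3′ UTR, all 5′ to 3′. The last capital A of Timp2 and Timp4 is part of the motif but does not pair with the seed.
mmu-miR-9-5p: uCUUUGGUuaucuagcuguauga
Plat: aagagaggtagACCAAAGtctgccctcct
Timp2: catcagaaaccCCAAAGAaacggttaagg
Timp4: tttggaggtggCCAAAGAaatacaagcct
The miRNA sequence is from RefSeq (GRCm38.p6) and is the same for the genes Mir9-1, Mir9-2 and Mir9-3. The motifs searched on the transcript strand were ACCAAAG, which pairs with bases 2 to 8, and CCAAAGA, which pairs with bases 2 to 7 and has an A after them. The 2 motifs overlap, and together they form the 8-base match ACCAAAGA, which none of the 9 genes held. The Plat match lay at chr8:22782398-22782404 (mm10, plus strand), bases 292 to 298 of a 3′ UTR of 738 bases. Timp2 matched at chr11:118302181-118302187 (minus strand), within a 3′ UTR of 2630 bases, and Timp4 at chr6:115244725-115244731 (minus strand), within one of 4394 bases. The longest annotated 3′ UTR of Plau, Plaur, Serpinb2, Serpine2, Timp1 and Timp3 held no match, which says only that these letters are not there. Over the 10952 tested genes with an annotated 3′ UTR, whose median length was 1167 bases, 22.2% held a match, and among the 6 tested genes of the set it was 2, Plat and Timp2. A match is a description of the sequence and does not show that miR-9 acts on it.

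No library was identical to another, and values were in TPM, a length-corrected abundance that keeps no record of depth, so counting error is unknown. On the first principal component in9 replicate 1 lay at -2.70, apart from the other in9 libraries (26.1 and 27.8) and nearer to LV2 (-22.2 to -6.98). Over all tested genes the log2 fold changes had a median of 0.06, which became -0.001 after trimmed-mean scaling. The keratins and adhesion genes that mark epithelial 4T1 cells were present, with a summed 2044.71 to 2079.13 TPM over 6 markers in in9 and 2150.28 to 2167.97 TPM in LV2. Most of this was Krt8 and Krt18, and the markers did not all move alike. Epcam was at 35.87 to 38.11 TPM in in9 and 43.85 to 47.65 TPM in LV2. Cdh1 overlapped, at 129.85 to 147.13 TPM in in9 and 118.18 to 130.37 TPM in LV2, and so did Krt14 and Krt19. Of 6 fibroblast markers all were under 1 TPM in every library, with sums of 0.12 to 0.24 TPM in in9 and 0.1 to 0.18 TPM in LV2. The 4 endothelial markers summed to 1.97 to 2.17 TPM in in9 and 1.72 to 1.95 TPM in LV2, and the 4 adipocyte markers to 0.76 to 1.38 TPM in in9 and 0.93 to 1.37 TPM in LV2. The 5 leukocyte and macrophage markers summed to 33.7 to 40.6 TPM in in9 and 27.5 to 28.9 TPM in LV2, nearly all of it Cd68, a lysosomal protein gene, while Adgre1 was listed at 0 in all libraries and Ptprc, which marks all leukocytes, reached at most 0.12 TPM. The part of these marker differences in the results was not tested. In such bulk libraries fewer cells of a type and less RNA per cell cannot be told apart.

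Levels of the 9 genes reached from among the highest of the table down to 0. In TPM Plau was highest, with a mean of 409.8 TPM in in9 and 394.2 TPM in LV2, above 97.4% of the tested genes. Timp1 and Plaur followed, and their libraries overlapped with each other in both groups, so these neighbours in the order did not differ beyond their spread. Timp2 came next, with 183 TPM in in9 and 173 TPM in LV2, then Serpinb2 and Plat, each apart from the next in all libraries. Plat, at 18.9 TPM in in9 and 13.8 TPM in LV2, was above only 46.8% of the tested genes. Urokinase transcripts outnumbered those of tissue plasminogen activator by 20.7 to 22.7 times in the in9 libraries and by 28.1 to 29.4 times in the LV2 libraries. Serpine2, Timp3 and Timp4 were at or near 0.

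**Figure D1:**
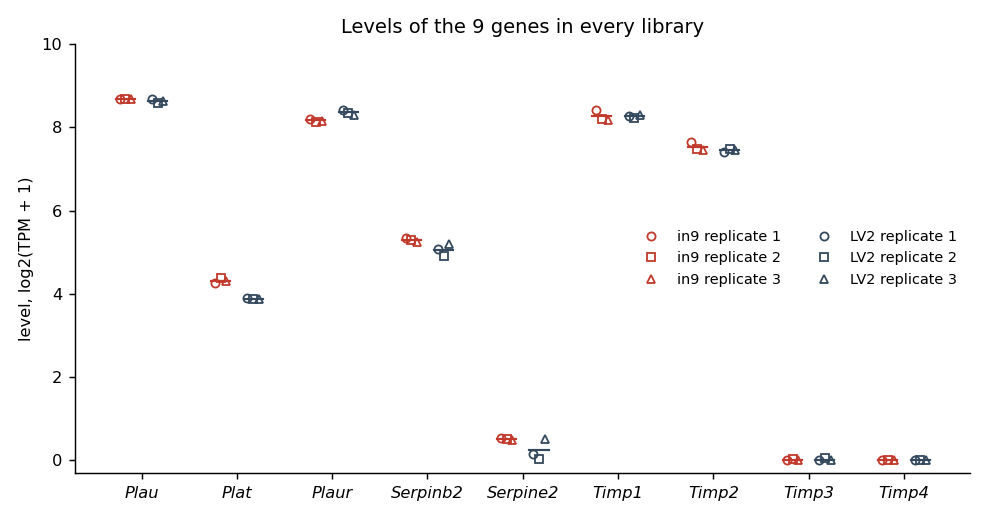
Level of each of the 9 genes in every library as log2(TPM + 1), with in9 left of LV2 for each gene, a symbol per replicate and a line at the group mean. Plau, Plaur, Timp1 and Timp2 lie highest, Serpinb2 and Plat in the middle, and Serpine2, Timp3 and Timp4 at or near 0.

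The comparison of in9 with LV2 was made in 1 limma fit over the 13406 genes with a mean of at least 1 TPM, on log2(TPM + 1), and a gene was called at a Benjamini-Hochberg adjusted p under 0.05. Of the 9 genes 6 passed the filter on low values and 3, Serpine2, Timp3 and Timp4, did not and were not tested. Plat was called higher and none was called lower, where over all tested genes 0.821% were called higher and 0.194% lower. The groups did not overlap in Plat, Plau and Serpinb2, higher in in9, and in Plaur, lower in in9, where over all tested genes 17.4% did not overlap with in9 higher and 8.08% with in9 lower, 25.5% in either direction. The median log2 fold change of the 6 genes was 0.07, against 0.06 over all tested genes, and -0.001 for both after trimmed-mean scaling.

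Plat, the gene of tissue plasminogen activator (ENSMUSG00000031538, chr8:22757727-22782844, mm10, plus strand), rose in in9. Its values were 18.06, 19.71 and 18.97 TPM in in9, against 13.86, 13.63 and 13.8 TPM in LV2. Every in9 library stood above every LV2 library, and the LV2 libraries were close to each other. The mean was 18.9 ± 0.826 TPM in in9 and 13.8 ± 0.119 TPM in LV2 (SD, n = 3), a ratio of 1.37, and the log2 fold change was 0.43 ± 0.06 (SE, 95% interval 0.28 to 0.58, adjusted p = 0.0453 in limma). The difference was as large without in9 replicate 1 (0.46, adjusted p = 0.0208), while without any other single library the adjusted p in limma was 0.123 to 0.215. Among the other settings it was not called with quantile normalization (adjusted p = 0.0514), without the intensity trend (0.0638) or without the filter on low values (0.0799), and the fit with a replicate block is given in the closing section.

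Plau, the gene of urokinase (chr14:20836660-20843385, plus strand), did not pass the test. It had 409.62, 408.71 and 410.99 TPM in in9, against 406.81, 383.27 and 392.52 TPM in LV2. The in9 libraries lay within a narrow band just above the highest LV2 library. The log2 fold change was 0.06 ± 0.04 (SE, 95% interval -0.03 to 0.15, adjusted p = 0.447 in limma), and it turned to -0.01 after trimmed-mean scaling, so no direction is given for it. Within a library, which no scaling touches, Plat amounted to 0.0441 to 0.0482 of Plau in in9 and 0.0341 to 0.0356 in LV2, without overlap.

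Plaur, the gene of the urokinase receptor (chr7:24462484-24475968, plus strand), had lower values in in9. They were 292.49, 280.27 and 285.02 TPM in in9, against 341.9, 323.22 and 315.06 TPM in LV2. All in9 libraries stood below all LV2 libraries. The log2 fold change was -0.19 ± 0.04 (SE, 95% interval -0.30 to -0.08), with an adjusted p of 0.1 in limma, so Plaur was not called with all libraries. It was called lower without in9 replicate 1 (-0.21, adjusted p = 0.0436) and with library weights (-0.20, adjusted p = 0.0252). Over all tested genes these settings called 494 and 523 genes lower, against 26 with all libraries in the main fit. Urokinase transcripts amounted to 1.40 to 1.46 times those of the receptor in the in9 libraries and to 1.19 to 1.25 times in the LV2 libraries. In every in9 library Plau was above and Plaur below all LV2 libraries. The ratio therefore could not overlap, and it adds nothing to the values of each gene.

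**Figure D2:**
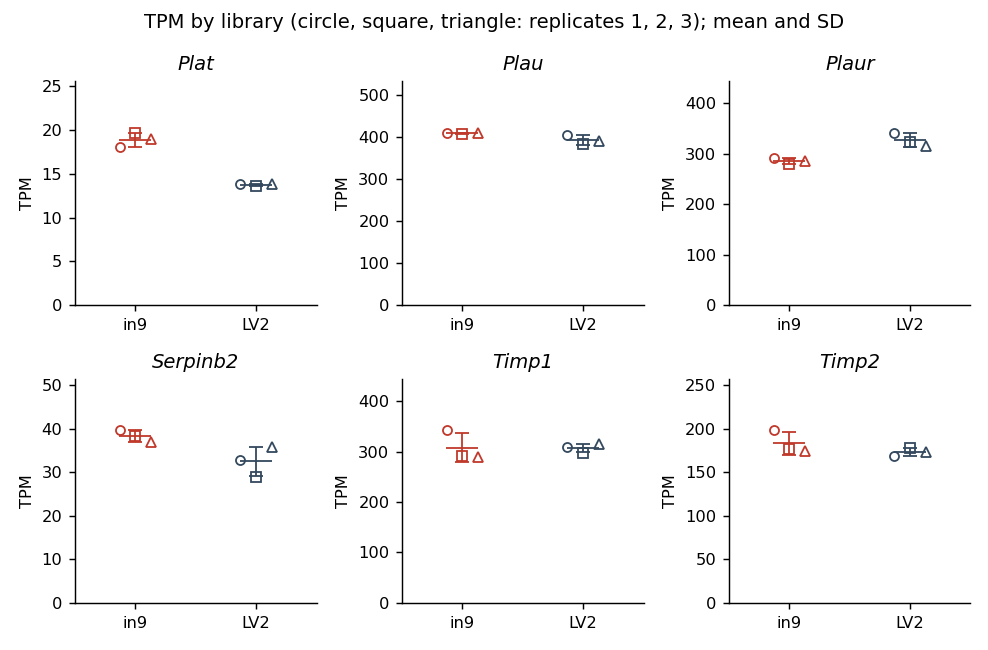
TPM of the 6 tested genes in every library, with in9 left of LV2, a symbol per replicate, and the mean with its SD; each panel has its own axis from 0. The groups do not overlap in Plat, Plau and Serpinb2 (in9 higher) and in Plaur (in9 lower), and in Timp1 and Timp2 in9 replicate 1 (341.84 and 197.82 TPM) lies above all other libraries.

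The inhibitors of the activators were of unequal level. Serpinb2 (chr1:107511423-107535478, plus strand) encodes plasminogen activator inhibitor type 2, which inhibits urokinase and is mostly kept inside the cell. It had 39.59, 38.25 and 36.85 TPM in in9, against 32.73, 28.95 and 35.77 TPM in LV2. The lowest in9 library was above the highest LV2 library by about 1 TPM, and LV2 spread more widely than in9. The log2 fold change was 0.23 ± 0.08 (SE, 95% interval 0.03 to 0.43, adjusted p = 0.205 in limma), and Serpinb2 was not called under any alternative. Relative to Plau within a library it was at 0.0897 to 0.0967 in in9 and 0.0755 to 0.0911 in LV2, and these overlapped.

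Serpine2 (chr1:79794197-79861180, minus strand) encodes protease nexin type 1, a secreted serpin that inhibits thrombin, urokinase and plasmin. It was below the filter, with 0.46, 0.44 and 0.41 TPM in in9, against 0.12, 0.03 and 0.43 TPM in LV2. One LV2 library was at the in9 level and the others were lower, and at this level no fold change is given. Serpinb2 lies in a cluster of clade B serpin genes on chromosome 1, where 11 annotated protein-coding members span chr1:106861173-107610484 (mm10). Of these, 8 were under 1 TPM in all libraries, and Serpinb5, which encodes maspin, at 8.79 to 10.18 TPM in in9 and 7.17 to 8.20 TPM in LV2, was the only other one at 1 TPM or more in all of them. Serpinb8, next to Serpinb2 and singled out after its values were seen, was at 3.36 TPM in in9 replicate 1, at 0.29 and 0.34 TPM in the other in9 libraries and at 0.14 to 0.23 TPM in LV2.

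For 7 of the 9 genes RefSeq's table (GRCm38.p6) gave the promoter, of which the 250 bases before the start were read. Plau and Plat had no entry there, so their promoters were not read. The windows of Plaur and Serpinb2 are shown because these genes were in the same pathway with non-overlapping groups on opposite sides. Neither gene was called with all libraries. They alone of the 7 held the AP-1 motif, searched here loosely as TGANTCA with any base as N. That pattern covers the same letters on both strands. The motif was TGACTCA in Plaur and TGAATCA in Serpinb2. Capitals mark that motif and, in Serpinb2, the TATA letters TATAAA, which do not overlap it.
Plaur: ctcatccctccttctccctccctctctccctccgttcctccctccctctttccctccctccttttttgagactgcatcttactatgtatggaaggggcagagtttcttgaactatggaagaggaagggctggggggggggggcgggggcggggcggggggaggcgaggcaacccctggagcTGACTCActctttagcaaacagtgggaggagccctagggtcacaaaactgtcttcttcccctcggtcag
Serpinb2: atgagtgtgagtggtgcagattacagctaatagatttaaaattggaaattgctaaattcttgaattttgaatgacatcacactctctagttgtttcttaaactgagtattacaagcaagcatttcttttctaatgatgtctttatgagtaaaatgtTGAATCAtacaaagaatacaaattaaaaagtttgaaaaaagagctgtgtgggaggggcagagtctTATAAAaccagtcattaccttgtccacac
The first is chr7:24462233-24462482 and the second chr1:107511173-107511422, both on the plus strand, 5′ to 3′. The AP-1 motif began 69 bases before the start in Plaur and 94 bases before it in Serpinb2, and TATAAA began 29 bases before the start of Serpinb2. Of 32851 such windows 6.75% held the AP-1 motif in the same loose form and 12.4% held TATAAA on either strand. A second start listed for Serpinb2 had the same motifs in an overlapping window. The window of Serpine2 had 34 CpG dinucleotides, that of Timp2 21, of Timp3 18, of Plaur and Timp1 6 each, of Timp4 2, and the first of Serpinb2 0, where the median of all windows was 6. Genes at or near 0 were thus found with CpG-rich (Serpine2, Timp3) and CpG-poor (Timp4) windows.

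The TIMP genes divided into a pair that was abundant and a pair that was at or near 0. Timp1 (chrX:20870166-20874735, plus strand) and Timp2 (chr11:118301069-118355740, minus strand) encode secreted inhibitors, and TIMP2 also takes part in activation of the MMP2 zymogen by membrane-type metalloproteinase. Timp1 had 341.84, 292.04 and 289.6 TPM in in9, against 308.69, 297.83 and 315.13 TPM in LV2. In9 replicate 1 was the highest of all libraries and the other in9 libraries were the lowest, so the groups overlapped. The log2 fold change was 0.00 ± 0.07 (SE, 95% interval -0.17 to 0.17, adjusted p = 0.995 in limma), and without in9 replicate 1 it was -0.08 (adjusted p = 0.188).

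Timp2 had 197.82, 176.66 and 174.4 TPM in in9, against 168.61, 177.97 and 173.15 TPM in LV2. Here too in9 replicate 1 was the highest of all libraries, and the others of both groups were interleaved. The log2 fold change was 0.08 ± 0.06 (SE, 95% interval -0.065 to 0.22, adjusted p = 0.513 in limma) and 0.02 without in9 replicate 1. Timp1 and Timp2 together reached 539.7, 468.7 and 464.0 TPM in in9 and 477.3, 475.8 and 488.3 TPM in LV2, and their ratio within a library was 1.65 to 1.73 in in9 and 1.67 to 1.83 in LV2.

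Timp3, whose protein binds to the matrix and also inhibits ADAM proteases, was listed at 0, 0.02 and 0 TPM in in9 and at 0, 0.04 and 0 TPM in LV2. Timp4 was listed at 0 in all 6 libraries. Timp1, Timp3 and Timp4 each lie inside a synapsin gene on the opposite strand, Syn1, Syn3 and Syn2. Syn1 was at most 0.12 TPM in any library, Syn3 at most 0.5 TPM and Syn2 at 0; the strand setting of the counting is not stated. Timp2 contains Cep295nl on its own strand, at 4.97 to 5.65 TPM in in9 and 3.63 to 4.01 TPM in LV2, and their shared reads cannot be told apart here.

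**Figure D3:**
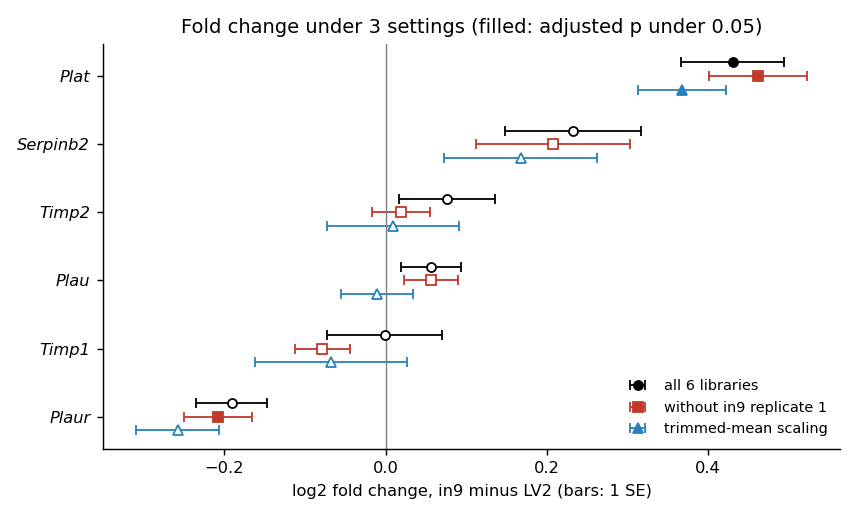
Log2 fold change (in9 minus LV2) of the 6 tested genes with bars of 1 SE, with all 6 libraries, without in9 replicate 1 and after trimmed-mean scaling; filled symbols have an adjusted p under 0.05. Plat is called under all 3 settings (0.43, 0.46 and 0.37), Plaur lies below 0 under all 3 and is called without in9 replicate 1, and Plau turns to -0.01 and Timp2 to 0.01 after scaling.

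The other genes of the system were read from 6 lists of 130 genes, 129 of them in the table and 51 tested. The lists were chosen with earlier results of these data known. Their counts beside the shares of all genes, here and for each list below, are therefore a description and no test of enrichment. Of these 51, 5 were called higher and none lower in limma, where 0.821% and 0.194% of all tested genes were, while 17 were higher and 4 lower when p under 0.05 was taken unadjusted, against 13.6% higher and 5.86% lower over all tested genes. The first list held plasminogen itself and proteases taken by family and role. Not every protease on it need act on plasminogen or on pro-urokinase. Plasminogen (Plg) was at most 0.03 TPM in any library, and in the body it is made mainly by the liver. None of the 4 tested was called, 2 were higher by the unadjusted p, and they had a median log2 fold change of 0.18. The lysosomal cysteine proteases cathepsin L (Ctsl, 0.21 ± 0.04 SE, adjusted p = 0.0761 in limma) and cathepsin B (Ctsb, 0.19 ± 0.04, adjusted p = 0.0958) had groups that did not overlap, and both were called higher without in9 replicate 1 (0.0166 and 0.0314) and with library weights (0.0155 and 0.0253). Over all tested genes these settings called 908 and 1166 genes higher, against 110 in the main fit. After trimmed-mean scaling Ctsl and Ctsb were at 0.15 and 0.13 (adjusted p of 0.227 and 0.34 in limma). Prss8, the gene of prostasin, was at 0.17 ± 0.13.

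Of 14 further inhibitors of plasmin and its activators 10 were under 1 TPM in all libraries, 4 were tested and none was called, and none passed unadjusted either. The Kunitz-type inhibitor genes Spint1 and Spint2, whose proteins block matriptase, had log2 fold changes of -0.13 ± 0.07 and 0.05 ± 0.04 (SE), the second turning to -0.02 after trimmed-mean scaling. Tfpi, an inhibitor of the tissue factor pathway, was at 0.37 ± 0.25.

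Of the receptors and clearance genes 15 of 21 were tested and 2 were called higher (0.821% over all tested genes), with a median of 0.10 beside 0.06 over all. Lrp1 encodes the endocytic receptor that clears complexes of plasminogen activators with their serpins, and Itga3 an integrin alpha subunit that can associate with the urokinase receptor. Lrp1 averaged 57.8 ± 8.34 TPM in in9 and 27.3 ± 2.10 TPM in LV2 (SD, n = 3 each), the largest change of this list (log2 fold change 1.05 ± 0.12 SE, adjusted p = 0.0256 in limma). Itga3 had 423.3, 448.96 and 458.87 TPM in in9, against 362.98, 352.95 and 359.03 TPM in LV2, which is 0.31 ± 0.04 on the log2 scale (SE, adjusted p = 0.0453 in limma; 0.0556 after trimmed-mean scaling). S100a10, which with annexin A2 forms a plasminogen-binding complex at the cell surface, was not called (-0.40 ± 0.09, adjusted p = 0.101 in limma). It had 1417.43, 1109.61 and 1140.3 TPM in in9, against 1564.84, 1603.6 and 1646.54 TPM in LV2. Without in9 replicate 1 it was called lower (-0.51, adjusted p = 0.00574 in limma), as with library weights (0.013). These settings called 494 and 523 genes lower over all, against 26 in the main fit. Anxa2, the gene of annexin A2, went the other way and was singled out after its values were seen. It was not called (0.10 ± 0.03 SE, adjusted p = 0.189 in limma), and all in9 libraries stood above all LV2 libraries. The calls of Lrp1 and Itga3 held without in9 replicate 1 and were lost without any one of the other 5 libraries (adjusted p of 0.106 to 0.168 and of 0.123 to 0.206). They were also lost without the filter (Lrp1 0.0702, Itga3 0.0799) and without the trend (Lrp1 0.0594, Itga3 0.093).

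Among the intracellular clade B serpins other than Serpinb2, 5 of 23 were tested. None was called, and 3 passed unadjusted. All 5 had a positive log2 fold change, as had 63.7% of all tested genes, and groups that did not overlap, where 17.4% of all did so with in9 higher. Their median was 0.29, which was 0.23 after trimmed-mean scaling with all 5 still positive. Serpinb9, which inhibits granzyme B, had 16.95, 17.83 and 18.57 TPM in in9, against 13.6, 13.45 and 12.89 TPM in LV2 (log2 fold change 0.39 ± 0.07 SE, adjusted p = 0.0576 in limma). It was called higher without in9 replicate 1 (0.0275), with library weights (0.0157) and among genes of at least 5 TPM (0.0467). Those settings called 908, 1166 and 150 genes higher over all, against 110 in the main fit. Serpinb6b was at 0.29 ± 0.07, called with library weights alone (adjusted p = 0.0414 in limma), and Serpinb5 at 0.29 ± 0.09. Serpinb6a and Serpinb6b, and Serpinb9 and Serpinb9b, are close relatives and may share reads. Of the remaining serpins 5 of 27 were tested and none was called, with a median of -0.14. The collagen chaperone gene Serpinh1 (-0.14 ± 0.04, adjusted p = 0.115 in limma) and Serpina3k (-0.80 ± 0.28, adjusted p = 0.198) were lower by the unadjusted p, Serpinh1 also being called with library weights (0.0387), and Serpina3g was at 0.15 ± 0.16. Serpina3k was near the filter, with 0.89, 1.58 and 0.33 TPM in in9, against 1.93, 1.99 and 2.91 TPM in LV2. The Serpina3 genes are a family of near copies, so reads may be split between them and single values are uncertain.

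Of the metalloproteinase genes, the last list, some rose. This list was taken by family and role, and not every protease on it need be inhibited by TIMPs. Of 34 metalloproteinase and regulator genes 18 were tested and 3 were called higher, the stromelysin Mmp3 (log2 fold change 1.01), the collagenase Mmp13 (0.98) and the gelatinase Mmp9 (0.53), and none was called lower in limma, against 0.821% and 0.194% of all tested genes. The median of this list was 0.17, beside 0.06 over all, and by the unadjusted p 7 were higher and 1 lower, against 13.6% and 5.86% of all. Mmp3 had 71.38, 69.83 and 69.95 TPM in in9, against 34.17, 34.81 and 34.61 TPM in LV2. Its groups were far apart beside their spread, while Timp1 and Timp2 overlapped in the same libraries. Mmp3 was called when any single library was left out. Mmp13 was called without LV2 replicate 1 (adjusted p = 0.037) or in9 replicate 1 (0.0119) and not without any of the other 4 (0.0737 to 0.121), and with 1 library left out Mmp9 was called without in9 replicate 1 (0.0172) and not otherwise, at 0.115 to 0.195. Mmp9 was also not called without the filter (0.0702) or the trend (0.0638).

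**Figure D4:**
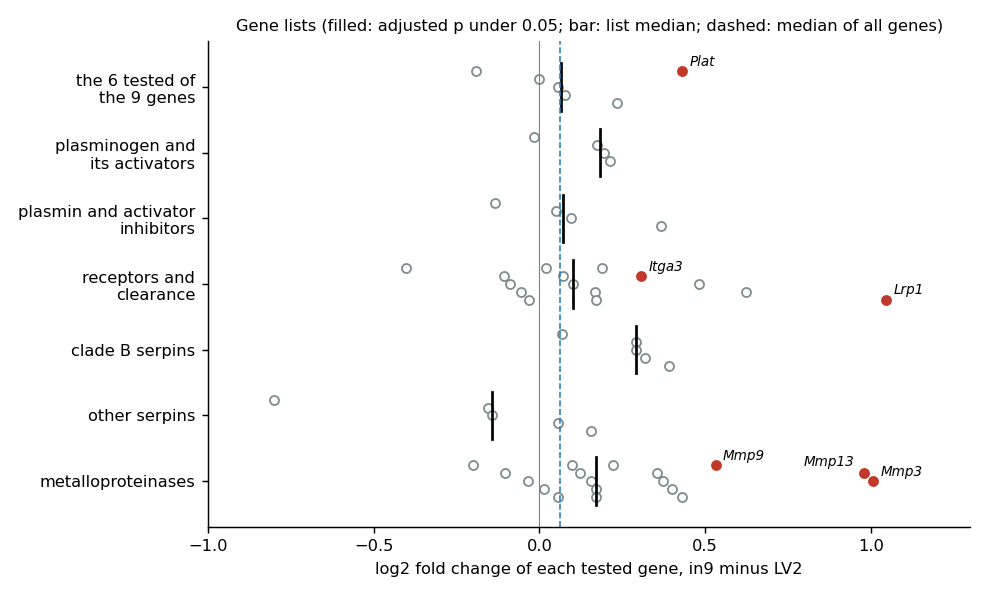
Log2 fold change (in9 minus LV2) of every tested gene by list, with the 6 tested of the 9 genes in the top row; filled points have an adjusted p under 0.05, bars mark list medians and the dashed line the median of all tested genes (0.06). Plat, Itga3, Lrp1, Mmp9, Mmp13 and Mmp3 are filled, and the clade B serpins all lie above 0.

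The genes whose pattern over the 6 libraries was most like that of Plat, which had the smallest p of the set, were read as a description. Among 9390 other named genes with a mean of at least 5 TPM, the highest Pearson r of log2(TPM + 1) were with Mxi1 (0.997), Nfe2l2 (0.9969), Stom (0.9967), Anxa6 (0.9967) and Paics (0.9956). These r rest on the step between the groups: Stom, which encodes the membrane protein stomatin, had 51.07, 54.26 and 51.55 TPM in in9, against 36.43, 36.04 and 36.46 TPM in LV2. Mxi1 encodes a repressor that competes with MYC for its partner MAX, and had 41.3, 46.2 and 44.2 TPM in in9, against 32.32, 31.92 and 33.07 TPM in LV2. As in Plat, in9 replicate 1 had the lowest in9 level in both. Both were picked by their r with Plat over these libraries, so this likeness is no separate observation.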

How the data were processed

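The series held 1 table of TPM values per gene for 6 messenger RNA libraries, deposited by the authors with 2 decimals beside group means, and the genome was mm10 per the submitters' processing notes. The design text names an array hybridization, whereas the labels' protocols and the TPM values are those of sequencing. Details not given in the sources used here include the aligner, the quantifier, the annotation and the strand setting, and depth per library is unknown.

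Groups were taken from the sample titles. Genes averaging 1 TPM or more were fitted as log2(TPM + 1) in limma 3.58.1 (R 4.3.3), using the intensity trend and no replicate block, in9 minus LV2, two-sided, and p-values were adjusted by Benjamini-Hochberg over all 13406 tested genes. Same-numbered libraries of the groups did not deviate together, as given in the closing section. The fit was tested on simulated data. All 9 genes were named, and of each list the called genes and the 3 with the smallest p. The 9 genes and the lists were chosen with earlier results of these data known. Coordinates, 3′ UTRs and overlaps came from GENCODE M21, which matched 55141 of the table's identifiers, and the miRNA and promoters from RefSeq. Python 3.11.15, pandas 2.3.3, numpy 2.4.6 and matplotlib 3.10.9 were used. As alternatives, the fit was repeated without the filter or with one of 5 TPM, with 0.1 as pseudocount, after trimmed-mean scaling of the tested genes (trimming 30% of M values and 5% of A values) or quantile normalization, without the trend, with library weights or a replicate block, and leaving out each library, and seed matches were also counted in 3′ UTRs of any annotated transcript.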

Additional observations from a re-analysis of the deposited data

How the results depend on the processing

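Over all genes the main 110 higher and 26 lower calls became 24 and 6 without the filter, 27 and 4 without the trend, 1166 and 523 with library weights, and 4 to 908 and 1 to 494 when 1 library was left out, the most without in9 replicate 1; a minimum of 5 TPM gave 45 lower. Of the 9 genes 1 was called higher and 0 lower; the count higher was 0 without the filter, with quantile normalization and without the trend, the count lower was 1 with library weights, and leaving out 1 library gave 0 to 1 for each. Of the pathway lists, 5 higher and 0 lower became 2 without the filter, 2 without the trend, 14 and 3 with weights, and 1 to 11 and 0 to 1 without 1 library. The sign turned after trimmed-mean scaling in Plau (-0.0107) and Spint2 (-0.0172), and in Timp1, at 0.00, with quantile normalization (0.0088) and when 1 library was left out (-0.0785 to 0.0408). Same-numbered libraries correlated in their deviations at -0.097, 0.022 and -0.046, so the numbers were not taken as pairs; with a replicate block 1 gene was higher and 1 lower over all genes, and 0 of the 9 genes and 0 of the list genes were called (adjusted p in limma of 0.235 for Plat, 0.208 for Lrp1, 0.234 for Itga3, 0.233 for Mmp9, 0.195 for Mmp13 and 0.0691 for Mmp3). The cause of these changes was not tested. The number of genes with a miR-9 match, 3, was the same with any annotated transcript. Depth is unknown, so the precision of the genes under 1 TPM cannot be given.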
